A study of Mus musculus with 2 samples.

Results

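The genes described here are 42 genes that copy DNA in S phase. They were chosen as a named list, with earlier results of these data known but with no threshold on a value, and were found by matching the Ensembl identifiers of the deposited tables to mouse gene symbols. All 42 were found among 43346 Ensembl genes, and all 42 lay among the 14011 genes with at least 100 counts summed over both libraries, the set in which ratios were compared. Total RNA of mouse midbrain at embryonic day 14.5, strain B6NCrl, was sequenced in 2 libraries that form 1 group. The labels name no treatment and no engineered allele. Per the labels, 1 pup gave 1 library, and the pups were collected on different days. They are called embryo 1 and embryo 2. The labels also give a pooled sex for both, which does not go with a single pup, and the libraries differed in sex-linked genes. Xist, the RNA of the inactive X chromosome, had 3 counts in embryo 1 and 20808 in embryo 2, and the Y-linked gene Eif2s3y had a TPM (the deposited level, scaled for transcript length and library) of 73.01 in embryo 1 and 0 in embryo 2. One pup per library means that collection day, sex and individual cannot be told apart in any difference between the embryos.

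DNA replication starts at origins, which the origin recognition complex marks. Cdc6 and Cdt1 help it load the ring-shaped MCM2-7 helicase in G1. In S phase Cdc45, the GINS complex and Mcm10 turn that ring into an active helicase. Polymerase alpha with its primase then lays down primers, polymerase epsilon and polymerase delta extend the leading and lagging strands, and the sliding clamp Pcna, loaded by replication factor C, holds polymerases on the template. Replication protein A covers the exposed single strand, Fen1 and Lig1 finish the Okazaki fragments, and ribonucleotide reductase, thymidylate synthase and thymidine kinase supply deoxynucleotides. Among the neural cells of the embryonic midbrain, DNA is copied by progenitors next to the ventricle, while the neurons they produce have left the cell cycle. Many replication genes are known targets of the E2F transcription factors, which pocket proteins of the Rb family hold in check.

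The libraries held 31687050 and 29182388 counts in Ensembl genes, with spike-in RNA at 3.15% and 3.32% of all counts. All 8 midbrain markers, among them Otx2 and En1, reached 1 TPM in each library. Markers of mesenchyme, macrophages, endothelium and erythroid cells differed widely. The TPM of the 10 mesenchyme markers summed to 410.2 in embryo 1 and 11.7 in embryo 2, that of the 10 macrophage markers to 146.8 and 56.19, that of the 10 endothelial markers to 223.0 and 140.9, and that of the 11 erythroid markers to 4153 and 2593. No marker of these 4 lists was at 0 in either library, and 40 of the 41 lay lower in embryo 2.

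The promoters of these genes are shown first, since a sequence that was not used to choose them, the E2F site, lay in part of them. RefSeq promoter windows, running from 250 bases before to 50 bases after the start site (GRCm38.p6), were at hand for 35 of the 42 genes. They were searched on both strands for 4 forms of the E2F site, TTTCCCGC, TTTGGCGC, TTTCGCGC and TTTGCCGC. A match was found in 14 of the 35 genes (40.0%), compared with 704 of 27025 genes with a window (2.6%) and 4.69% of the 10458 compared genes that have one. Stretches upstream of the window's start site are printed for 8 of the 14. They were chosen because they cover the MCM ring, origin loading, helicase activation and polymerase alpha. By the GENCODE gene coordinates, the stretches of Cdc6, Mcm7 and Gins3, and part of that of Orc1, lie inside the gene. Capitals mark the E2F octamers, 2 of which overlap in Mcm6 and in Mcm5, and each line reads 5′ to 3′ on the strand of its gene.
Mcm6, chr1:128359725-128359835, minus strand: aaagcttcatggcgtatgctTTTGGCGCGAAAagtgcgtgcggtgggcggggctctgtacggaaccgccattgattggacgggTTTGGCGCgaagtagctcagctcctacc
Mcm5, chr8:75109336-75109387, plus strand: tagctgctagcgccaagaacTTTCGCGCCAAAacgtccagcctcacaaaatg
Mcm7, chr5:138172021-138172068, minus strand: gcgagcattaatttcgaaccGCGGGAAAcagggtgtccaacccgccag
Orc1, chr4:108579407-108579453, plus strand: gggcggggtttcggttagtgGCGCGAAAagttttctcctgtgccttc
Orc3, chr4:34614956-34615003, minus strand: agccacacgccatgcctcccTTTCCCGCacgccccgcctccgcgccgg
Cdc6, chr11:98907993-98908040, plus strand: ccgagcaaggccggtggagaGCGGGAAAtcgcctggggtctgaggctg
Gins3, chr8:95633498-95633545, plus strand: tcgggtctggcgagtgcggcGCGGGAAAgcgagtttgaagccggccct
Pola1, chrX:93632266-93632313, minus strand: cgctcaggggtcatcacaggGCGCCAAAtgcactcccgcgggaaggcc

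Mcm6 held 3 matches, starting 110, 106 and 47 bases before its start site, more than any other of the 14 genes. By role, a match was found in 4 of the 5 MCM2-7 genes with a window, in 4 of 8 genes of origin loading, in 3 of 6 polymerase and primase genes, in 1 of 5 clamp genes, in 1 of 4 genes of single-strand binding and Okazaki joining, in 1 of 3 helicase activation genes and in none of the 4 genes of deoxynucleotide supply. The CHR element, the hexamer TTTGAA of genes active in G2 and mitosis, lay in 5 of the 35 windows (14.3%), close to the 13.9% of the compared genes that have one (20.2% of all genes), and the box CCAAT in 22 (62.9%), against 43.3% of those compared and 41.1% of all genes. In 25 mitosis genes with a window the order was the other way round, with an E2F octamer in 1 (4.0%) and the CHR hexamer in 19 (76.0%). A match is a run of letters and not a measured binding site, and a window without one says nothing of the factor. The 14 members with an octamer had a median log2 ratio (embryo 2 over embryo 1) of -0.38, and the 21 without one had -0.33.

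**Figure D1:**
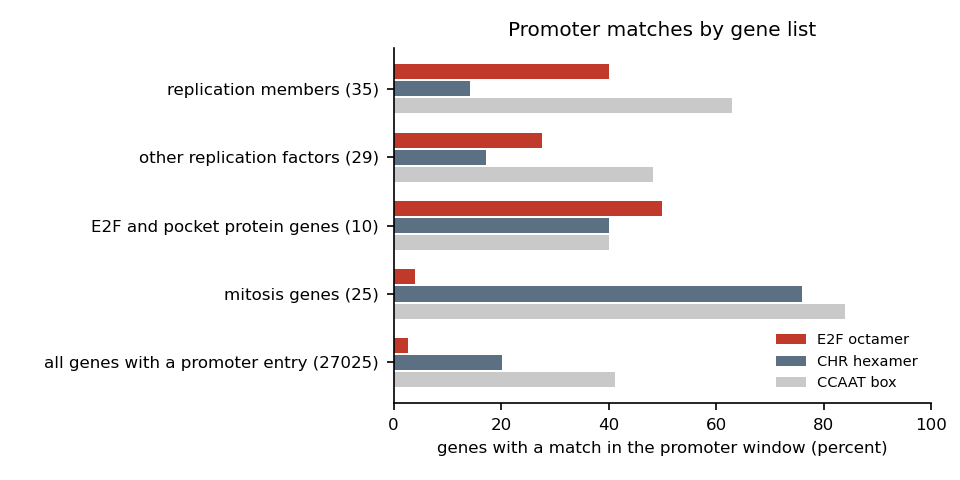
Percent of genes whose promoter window holds an E2F octamer, the CHR hexamer or a CCAAT box, for each gene list and for all genes with a window (numbers in brackets). The E2F octamer was found in 40.0% of the replication genes and 4.0% of the mitosis genes, and the CHR hexamer in 14.3% and 76.0%.

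All 42 genes reached 1 TPM in each embryo. The members' median TPM was 28.4 in embryo 1 and 17.9 in embryo 2, where the genes compared had 19.4 and 17.4. Levels spanned a wide range, from Orc1 with 1.42 ± 0.368 (SD, n = 2) to Pcna with 97.4 ± 9.57 (SD, n = 2). With the deposited posterior mean TPM, Orc1 was still the lowest but had a mean of 2.59. The rank order of the members was close in both embryos, with a Spearman rho of 0.966 over the 42 genes, which share the 2 libraries. The summed TPM was 1445 in embryo 1 and 1097 in embryo 2.

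**Figure D2:**
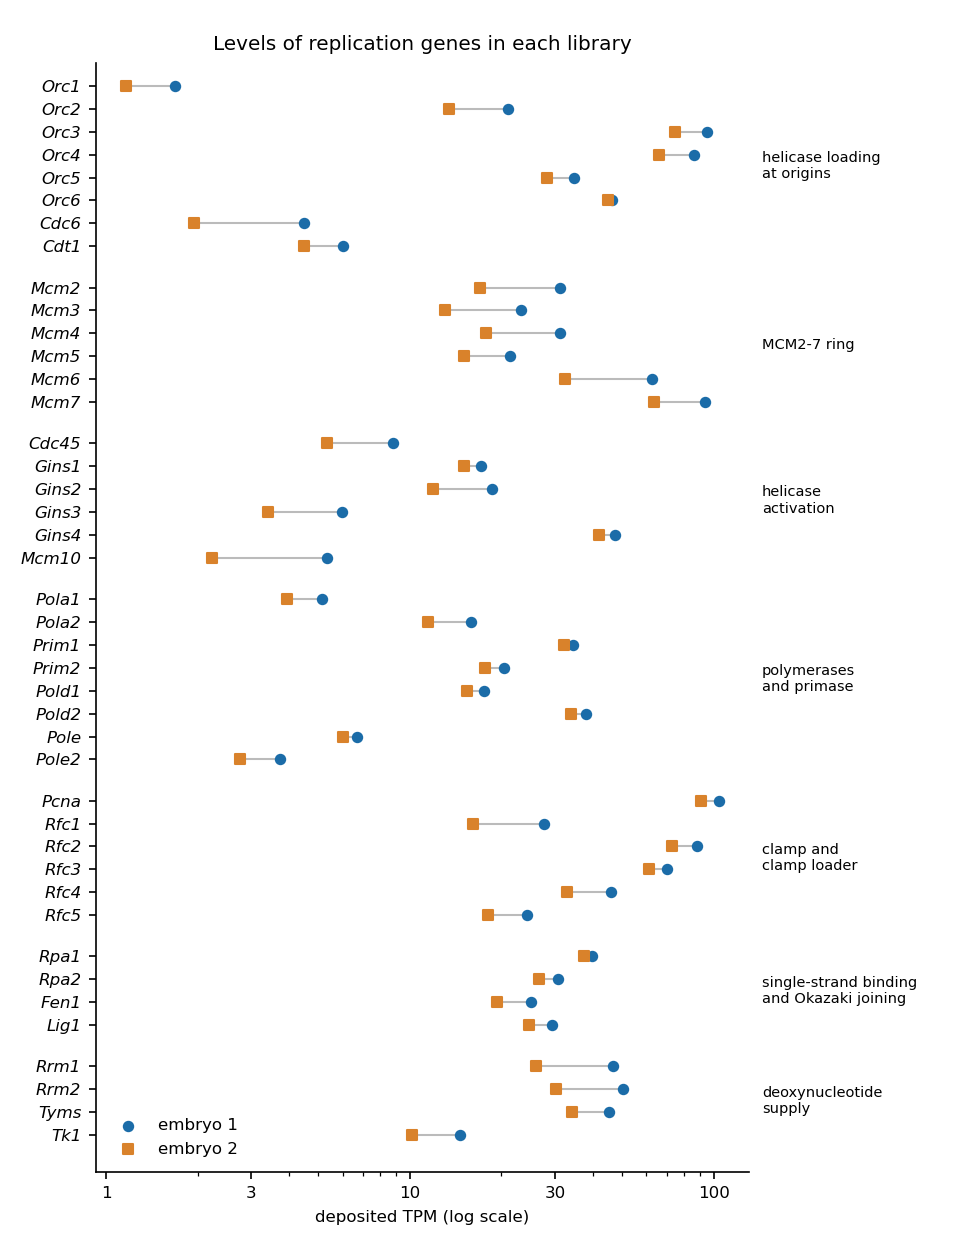
Deposited TPM of the 42 replication genes on a log scale, by role, in embryo 1 (circles) and embryo 2 (squares). Each gene's 2 values are joined by a grey line, and the square lies to the left of the circle in every gene, from Orc1 at 1.68 and 1.16 to Pcna at 104.14 and 90.61.

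Nearly all of the genes were lower in embryo 2. Ratios are embryo 2 over embryo 1, from estimated counts divided by each library's total over Ensembl genes. Each is given with a 95% interval that covers counting error only, since reads are not independent molecules, and says nothing of variation between animals. With 1 library per embryo there is no test, and a fixed size of 1.5-fold was used to name genes. The ratio was below 1 in 40 of 42 genes, against 52.6% of the genes compared. The interval lay wholly below 1 in 31 members, against 36.4% of the genes compared, and wholly above 1 in none. In 12 members embryo 2 was at least 1.5-fold lower, against 9.21% of all genes, and in 0 at least 1.5-fold higher, against 5.01%. At least 2-fold lower was 1 member, Mcm10, against 3.55% of all genes. The median log2 ratio was -0.35 over the members and -0.02 over all genes compared. Of the 11068 genes whose summed counts lay in the members' range, 52.7% were lower and 10.0% at least 1.5-fold lower.

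The scaling moved this background. With ratios of the deposited TPM, 65.1% of all genes were lower in embryo 2, 13.3% at least 1.5-fold lower and 3.28% at least 1.5-fold higher, the median of all genes shifted from -0.02 to -0.13, and the members' median was -0.425. With spike-in scaling 62.5% of all genes were lower in embryo 2, 11.8% at least 1.5-fold lower and 3.56% at least 1.5-fold higher. In bulk tissue, fewer replicating cells and less RNA of these genes per cell cannot be told apart. The mesenchyme, macrophage, endothelial and erythroid markers lay lower in the same embryo, and their part in the members' ratios was not tested.

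**Figure D3:**
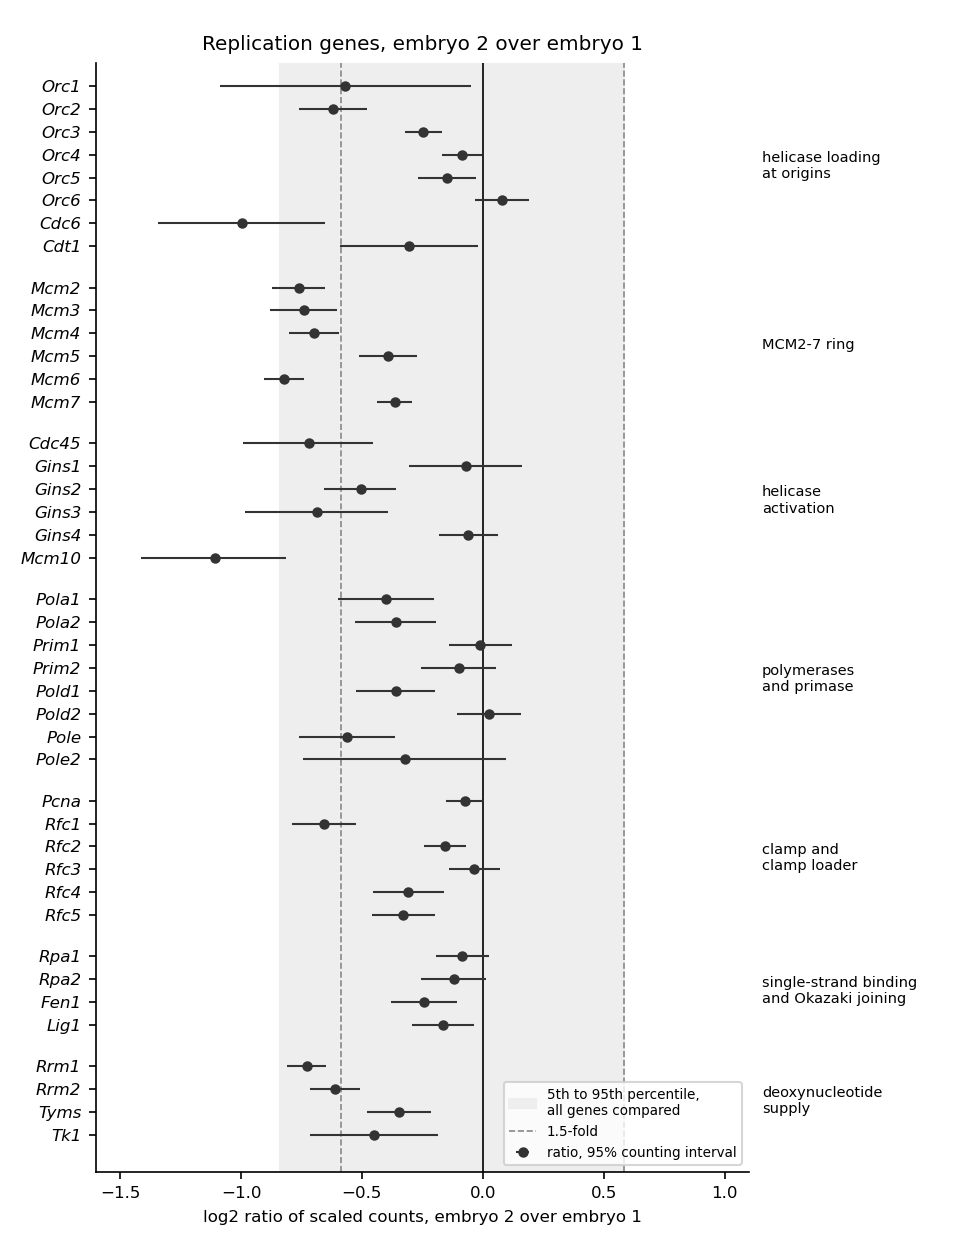
Log2 ratio of scaled counts, embryo 2 over embryo 1, for each replication gene, with 95% counting intervals. Grey marks the 5th to 95th percentile of all genes compared (-0.84 to 0.58) and dashed lines mark 1.5-fold, past which 12 genes lie on the lower side and 0 on the higher side.

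The 8 genes that load the helicase at origins had a median log2 ratio of -0.275, with 7 lower in embryo 2 and 2 past 1.5-fold. The origin recognition complex varied more in level than any other complex here. Orc3 had a TPM of 95.28 in embryo 1 and 74.53 in embryo 2, and Orc4 had 85.93 and 65.85. Orc1, its ATPase subunit that is known to be made in a cell cycle dependent way, had only 1.68 and 1.16, from 85 and 53 counts. Orc3 over Orc1 was thus 56.7-fold in embryo 1 and 64.2-fold in embryo 2. The gap was smaller with the posterior mean TPM, where the means were 83.51 for Orc3 and 2.59 for Orc1. Between the embryos Orc1 had a ratio of 0.673 (0.471 to 0.965), just short of 1.5-fold.

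Orc2 had a TPM of 21.05 and 13.43 and a ratio of 0.65 (0.59 to 0.717), past 1.5-fold. Orc5 had 34.77 and 28.27 with a ratio of 0.902 (0.83 to 0.98), and Orc3 and Orc4 had ratios of 0.843 (0.80 to 0.888) and 0.943 (0.89 to 0.999). Orc6 was the member with the highest ratio, with a TPM of 46.25 and 45.03 and a ratio of 1.06 (0.978 to 1.14), and its direction turned with spike-in scaling and with TPM. Subunits of this complex thus ranged from 0.65 to 1.06 in ratio.

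Cdc6, the loading factor that binds the origin recognition complex, differed more than the subunits it binds. Its TPM was 4.47 in embryo 1 and 1.95 in embryo 2, and its ratio of 0.502 (0.394 to 0.636) was just short of 2-fold. The gene lies at chr11:98907801-98923940 (mm10), plus strand. Cdt1, its partner in loading, had a TPM of 6.0 and 4.48 and a ratio of 0.81 (0.664 to 0.987).

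The MCM2-7 ring had the lowest median of the 7 roles, -0.72 on the log2 scale. All 6 subunits were lower in embryo 2 under every scaling run, and 4 of them passed 1.5-fold under each. Mcm6 had 3424 counts in embryo 1 and 1782 in embryo 2, a TPM of 62.65 and 32.29 and a ratio of 0.565 (0.533 to 0.599). Mcm2 had a TPM of 31.21 and 16.98 with a ratio of 0.59 (0.547 to 0.636). Mcm3 had 23.15 and 13.05 with a ratio of 0.598 (0.544 to 0.658).

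Mcm4 had a TPM of 31.30 and 17.82 and a ratio of 0.617 (0.574 to 0.663). The counting intervals of Mcm2, Mcm3, Mcm4 and Mcm6 all overlap one another. Mcm5 and Mcm7 stood apart from these 4, with ratios of 0.762 (0.701 to 0.829) and 0.776 (0.738 to 0.817). Mcm5 had a TPM of 21.35 and 15.01. Mcm7 was the most abundant subunit, with a TPM of 93.25 and 63.68, and Mcm3 the least abundant on average. Mcm5 was instead the lowest in embryo 1, and with posterior mean TPM (17.66 against 18.52 for Mcm3). The ring holds each subunit once, yet Mcm7 over Mcm3 was 4.03-fold in embryo 1 and 4.88-fold in embryo 2. Mcm7 hosts microRNA genes in its introns, and 2 of them, Mir25 and Mir93, share 1.9% and 1.99% of its exonic bases in the annotation.

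Helicase activation had a median of -0.595, with all 6 genes lower and 3 past 1.5-fold. Restricting it to genes with at least 500 summed counts, which leaves 4 of the 6, gave -0.29. Mcm10, which binds the activated helicase and helps polymerase alpha, was the lowest of all 42 genes in ratio. It had 314 counts in embryo 1 and 134 in embryo 2, a TPM of 5.33 and 2.23, and a ratio of 0.463 (0.376 to 0.569), and 2.88% of all genes compared had a lower ratio. The gene (ENSMUSG00000026669.10) lies at chr2:4989714-5012791 (mm10), minus strand. Cdc45, the cofactor that joins the ring to GINS, had a TPM of 8.79 and 5.32 and a ratio of 0.607 (0.503 to 0.731).

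GINS is a complex of 4 subunits present once each, and its genes did not share 1 ratio. Gins3 had a TPM of 5.96 and 3.41 and a ratio of 0.621 (0.505 to 0.761). Gins2 had 18.59 and 11.88 with a ratio of 0.704 (0.635 to 0.781). Both intervals lie below those of Gins1 and Gins4. Gins4 had a TPM of 47.26 and 41.84 with a ratio of 0.96 (0.881 to 1.045), and Gins1 had 17.12 and 15.03 with a ratio of 0.952 (0.809 to 1.12). The 2 pairs also differed in effective length, with 988 and 1265 nt for Gins1 and Gins4 and 2652 and 2313 nt for Gins2 and Gins3. Set against the median of all genes of like length, Gins1 had a log2 value of -0.289 and Gins2 -0.395. On that scale Gins4 had -0.163 and Gins3 -0.65. Gins4 over Gins3 in TPM was 7.93-fold in embryo 1 and 12.3-fold in embryo 2.

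Among the 8 polymerase and primase genes 7 were lower and none passed 1.5-fold (1 with spike-in scaling), and the median was -0.34. Pole, the catalytic subunit of polymerase epsilon, had the lowest ratio of this role at 0.678 (0.59 to 0.777), just short of 1.5-fold, and Pole2, its second subunit, the fewest counts at 114 and 84, a TPM of 3.73 and 2.75 and a ratio of 0.80 (0.596 to 1.07). Pola1, the catalytic subunit of polymerase alpha, had a TPM of 5.13 and 3.93 and a ratio of 0.757 (0.659 to 0.87). Pola2, its second subunit, had 15.90 and 11.44 with a ratio of 0.779 (0.693 to 0.874).

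The primase genes differed less between the embryos than the polymerase alpha genes they work with. Prim1, the catalytic primase subunit, had a TPM of 34.38 and 32.11 with a ratio of 0.992 (0.907 to 1.086), and its direction turned with TMM scaling. Prim2 had 20.45 and 17.63 with a ratio of 0.933 (0.838 to 1.038). For polymerase delta the subunits also differed by counts, with Pold1 (17.54 and 15.36 TPM) at 0.78 (0.696 to 0.873) and Pold2 at 1.018 (0.929 to 1.116), and the intervals did not overlap. By deposited TPM this gap was gone, with ratios of 0.876 for Pold1 and 0.888 for Pold2. Pold2 was the other member above 1, with a TPM of 38.09 and 33.82, and it was below 1 with spike-in scaling and with TPM.

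The clamp and its loader had the highest median level of all roles, with a median mean TPM of 52.4. Their median log2 ratio was -0.23, with all 6 lower and 1 past 1.5-fold. Pcna had 2754 counts in embryo 1 and 2411 in embryo 2, a TPM of 104.14 and 90.61 and a ratio of 0.95 (0.90 to 1.004). So the interval of the most abundant member, a gene often used to mark S phase, included 1 at this scaling, while with spike-in scaling its log2 ratio was -0.155. Rfc1, the large subunit of the loader, had a TPM of 27.55 and 16.17 and a ratio of 0.634 (0.579 to 0.695). The 4 small subunits lay closer to 1: Rfc3 had a TPM of 69.95 and 60.99 and a ratio of 0.976 (0.906 to 1.051).

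Rfc2 had a TPM of 88.38 and 73.09 and a ratio of 0.896 (0.844 to 0.952). Rfc4 had 45.77 and 32.93 with 0.808 (0.729 to 0.895), and Rfc5 had 24.28 and 18.05 with 0.796 (0.727 to 0.871). The interval of Rfc1 lay below those of all 4 small subunits. Rfc5 was the least abundant on average, 3.82-fold under Rfc2, with a mean TPM of 21.16 against 21.86 for Rfc1. Rfc1 was instead the lowest in embryo 2, and with posterior mean TPM (21.7 against 22.25 for Rfc5).

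The 4 genes of single-strand binding and Okazaki joining had the median closest to 0, -0.14, with all 4 lower and none past 1.5-fold. Rpa1 and Rpa2, subunits of replication protein A, had TPM values of 39.77 and 37.36, and of 30.65 and 26.67. Their ratios were 0.943 (0.875 to 1.017) and 0.92 (0.838 to 1.01), both within counting error of 1 at this scaling. With spike-in scaling the log2 ratios of Rpa1 and Rpa2 were -0.166 and -0.202. Fen1, the flap endonuclease, had a TPM of 24.97 and 19.39 and a ratio of 0.844 (0.768 to 0.928). Lig1, the ligase that seals Okazaki fragments, had 29.24 and 24.58 with a ratio of 0.892 (0.816 to 0.976).

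The 4 genes of deoxynucleotide supply had a median of -0.53, all lower, with both subunits of ribonucleotide reductase past 1.5-fold. Rrm1, the large subunit, had 3481 and 1934 counts, a TPM of 46.63 and 25.95 and a ratio of 0.603 (0.57 to 0.638). Rrm2, the small subunit whose protein is made in S phase, had a TPM of 50.37 and 30.30 and a ratio of 0.655 (0.609 to 0.704). The gap in TPM between the highest and the lowest subunit was smaller here than in any other complex listed, with Rrm2 over Rrm1 at 1.08-fold and 1.17-fold. Tyms, the thymidylate synthase, had a TPM of 45.08 and 34.13 and a ratio of 0.786 (0.717 to 0.861). Tk1, the cytosolic thymidine kinase, had 14.66 and 10.16 with a ratio of 0.733 (0.609 to 0.88).

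The members' ratios went with transcript length. Over the 42 genes the Spearman correlation of the log2 ratio with effective length, the number of positions at which a read can start, was -0.747, and all points share the same 2 libraries. Of the 20 members of up to 2000 nt, 18 were lower in embryo 2 and 1 passed 1.5-fold, Cdc45, with a median of -0.11, and all genes of that size had a median of 0.10 with 34.4% lower and 6.04% past 1.5-fold, so the members' share past 1.5-fold (5.0%) was near that background. Of the 22 longer members, all were lower and 11 passed 1.5-fold, with a median of -0.59, where all longer genes had -0.11 with 63.3% lower and 11.1% past 1.5-fold.

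Length went with the ratio outside the members too, with -0.311 over the 14011 genes compared and -0.449 over 48 spike-in RNAs, which come from no embryo. The spike-ins spanned 175 to 1895 nt, so they do not cover the members of over 2000 nt. Scaled to their own total, the spike-ins had a median absolute log2 ratio of 0.083. That of all 42 members was 0.353, but the 20 members of up to 2000 nt had a median log2 ratio of -0.11. These sets differ in length and scaling, and their sizes were not tested against each other. When each ratio was set against the median of all genes of like length, the members' median was -0.32, 41 of 42 were lower and 9 passed 1.5-fold, all of them among the 12. On that scale 50% of all genes were lower and 7.87% at least 1.5-fold lower. Orc2, Mcm4 and Rrm2 no longer passed 1.5-fold. The MCM2-7 ring kept the lowest median of the 7 roles on that scale, -0.595, ahead of deoxynucleotide supply at -0.56 and helicase activation at -0.52.

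**Figure D4:**
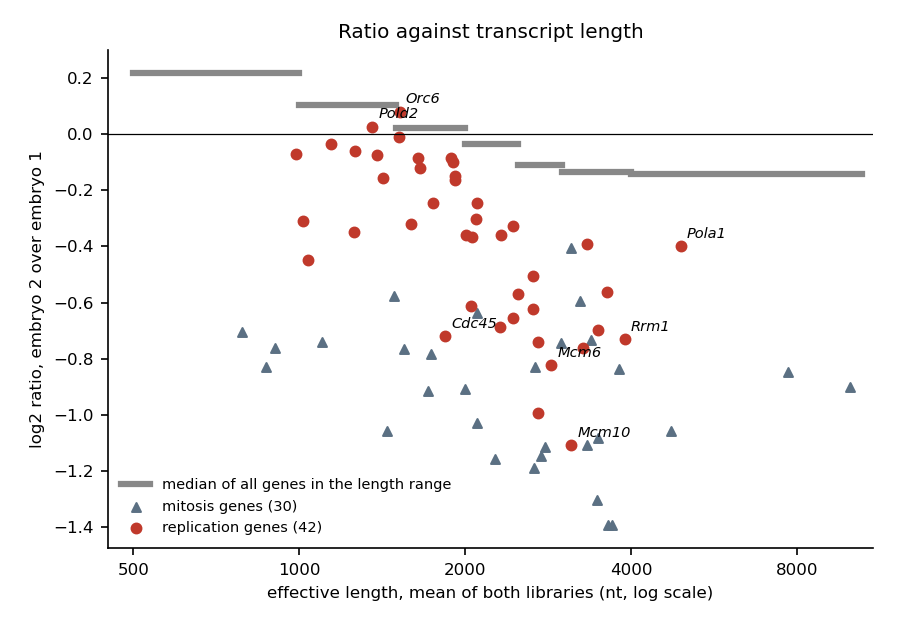
Log2 ratio, embryo 2 over embryo 1, against effective length in nt (log scale) for 42 replication genes (circles) and 30 mitosis genes (triangles), with the median of all genes in each length range as grey bars. The 22 replication genes longer than 2000 nt have a median of -0.59 and the 20 shorter ones -0.11, while the mitosis genes have -1.03 and -0.765.

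Beside other gene lists, the members' median lay between that of the housekeeping genes and that of the mitosis genes. These lists compare the same 2 libraries. Of 36 other replication factors, such as kinases, accessory subunits and chromatin assembly factors, 28 were lower and 9 passed 1.5-fold (15 with TPM), with a median of -0.28. Their most abundant genes were Dtymk (115.64 and 111.94 TPM), Slbp (110.28 and 90.21) and Pole4 (95.32 and 104.30). Pole4 had the highest ratio, 1.15 (1.088 to 1.22), and Asf1b, a histone chaperone that hands over histones behind the fork, the lowest, 0.444 (0.367 to 0.533), from 399 and 163 counts.

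Of 13 E2F and pocket protein genes, 12 were lower and 3 passed 1.5-fold, with a median of -0.42. The most abundant were Tfdp1, the partner of E2F proteins (89.68 and 60.47 TPM), E2f4 (40.02 and 33.02) and Rb1 (28.95 and 28.17). E2f8, an E2F that represses, had the lowest ratio, 0.345 (0.245 to 0.479), from 154 and 49 counts, and E2f7, E2f8's relative, had 0.573 (0.473 to 0.692). E2f1, an activating E2F, had the highest, 1.004 (0.778 to 1.29), from 132 and 122 counts. The third past 1.5-fold was Rbl1, a pocket protein, at 0.655 (0.57 to 0.751).

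All 30 mitosis genes were lower in embryo 2, 28 passed 1.5-fold and 12 passed 2-fold, with a median of -0.87. The most abundant were Cdk1 (75.22 and 46.71 TPM), Ube2c (69.06 and 35.93) and Ccnb1 (56.32 and 24.20). Ect2, which starts cytokinesis, had the lowest ratio, 0.381 (0.334 to 0.433), with Top2a almost equal, and Incenp the highest, 0.756 (0.673 to 0.848). Only 2 replication genes, Mcm10 and Cdc6, lay below the mitosis median. Among genes of up to 2000 nt the mitosis genes had a median of -0.765 (9 genes) and the members -0.11. The difference between the lists was not tested.

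All 8 G1 cyclin and kinase genes were lower and 5 passed 1.5-fold, with a median of -0.69. Ccne2, an E-type cyclin that acts at the G1 to S transition, had the lowest ratio, 0.489 (0.427 to 0.559), with Ccnd2 at 0.491 (0.475 to 0.507). Cdk4 had the highest ratio, 0.941 (0.919 to 0.965), and a TPM of 972.35 and 827.20, followed in level by Ccnd2 (112.59 and 50.96) and Ccnd3 (54.16 and 44.05). The 10 neural progenitor markers had a median of -0.13, with 8 lower (7 with TMM scaling) and none past 1.5-fold (2 with TPM). Sox2 had the highest ratio there, 1.43 (1.276 to 1.6), Notch1 the lowest, 0.763 (0.727 to 0.80), and Fabp7 had the highest TPM, 1214.29 and 1510.67. The 10 young neuron markers had a median of 0.10, which turned to -0.015 with TPM, from Dcx at 0.783 (0.771 to 0.796) to Stmn2 at 1.499 (1.477 to 1.52). The 10 housekeeping genes had a median between -0.15 with TPM and 0.002 with TMM scaling.

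**Figure D5:**
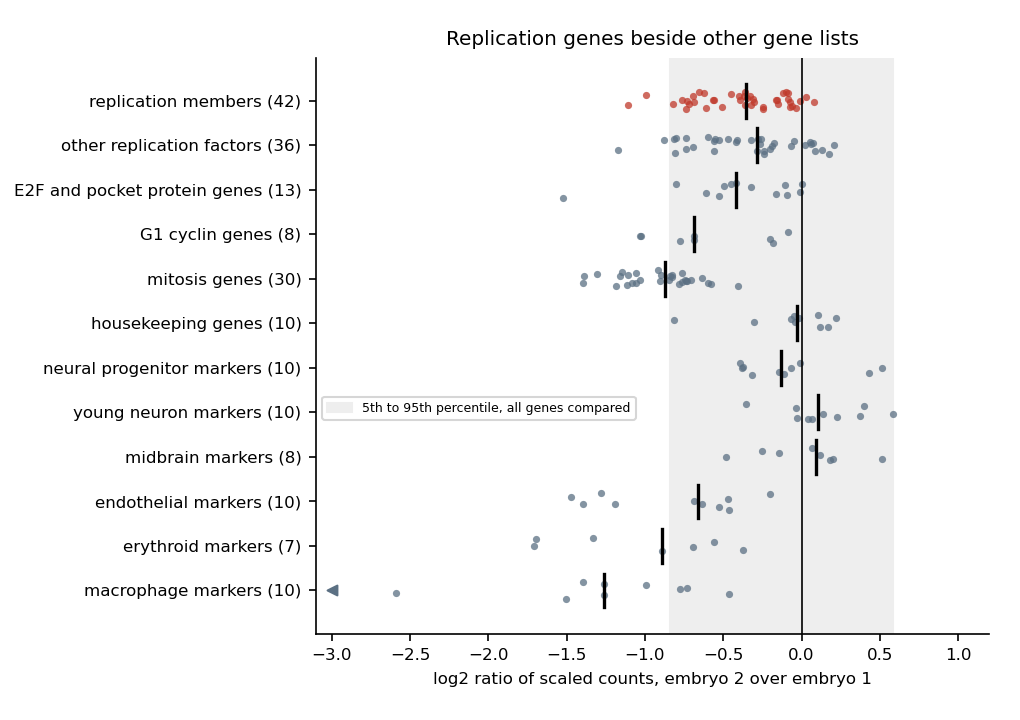
Log2 ratios, embryo 2 over embryo 1, of the replication genes (top) and other gene lists, with the number of genes compared in brackets, a dot per gene and a bar at each list's median. Grey marks the 5th to 95th percentile of all genes, the arrowhead is Mrc1 at -5.89, and mesenchyme markers, with a median of -5.46, lie outside the axis; the median is -0.35 for replication genes and -0.87 for mitosis genes.

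The estimated transcripts of a gene can move its TPM apart from its counts. Of the 42 genes, 9 are listed with 1 transcript, and in 40 the transcript with the highest mean TPM was protein coding. The exceptions were Rfc1, whose leading transcript of 485 nt held 82 of 1292 counts in embryo 1, and Tyms, whose leading transcript is annotated for nonsense-mediated decay. The leading transcript's share of the gene's TPM differed by over 10 percentage points between the embryos in 7 genes. The share was lower in embryo 2 in 6 of them. The same count was not made over all genes, so 7 of 42 cannot be set against a background.

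The widest gaps were in Cdc45, where the transcript of 2143 nt had 70.8% in embryo 1 and 47.6% in embryo 2, and in Pole, where the transcript of 7163 nt had 48.8% and 26.8%. In Pole shorter transcripts took its place, so that its effective length was 4271 nt in embryo 1 and 2979 nt in embryo 2. Its ratio was 0.678 by counts and 0.896 by TPM, with TPM values of 6.70 and 6.0. The leading transcript of Orc1 (3014 nt) had 89.3% and 76.1%, that of Fen1 (2100 nt) 42.9% and 29.6%, that of Pola2 (2424 nt) 88.1% and 75.9%, and that of Gins2 (3900 nt) 52.4% and 42.2%. Cdc6 went the other way, with 72.3% and 85.1% in a transcript of 2559 nt. These shares are estimates, and they carry no interval. The leading transcript of Orc1 had 50 counts in embryo 2, and other transcripts that changed a share had far fewer. In Orc1 a transcript of 670 nt had 0 counts in embryo 1, and 3.01 counts and 23.9% of the TPM in embryo 2. In Pole the transcripts of 747 and 1523 nt had 5.43 and 8.59 counts in embryo 1, and 14.3 and 32.32 in embryo 2.

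Some members share exonic bases with a neighbour, and the sources used here do not say whether the counting used strand. In 7 genes over 10% of exonic bases lay in exons of a gene on the opposite strand, namely Fen1 (78.8%, Gm10143), Gins2 (67.3%, Gse1), Orc2 (29.8%, Nif3l1), Rfc2 (15.1%, Lat2), Rfc4 (12.7%, Eif4a2), Orc1 (10.8%, Gm12743) and Rfc5 (10.7%, Wsb2). The values of these 7 are uncertain for that reason. Without them the median of the other 35 was -0.36, with 33 lower and 11 past 1.5-fold. The posterior standard deviation that the authors deposited for each count, a measure of reads that could belong to several genes, was at most 3.35% of the count in any member, reached by Gins2 in embryo 2.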

How the data were processed

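Total RNA longer than 200 nt, 10 ng per library, was sequenced from 2 embryonic midbrains, per the labels. The authors deposited gene and transcript tables for mm10 and GENCODE M4, per the file headers and text records, with TPM, FPKM, effective length and posterior standard deviations. The expected counts, which are estimated reads per gene that need not be whole, and their posterior means were deposited unscaled, per the file headers. The sources used here name no aligner or counter settings. Symbols and coordinates came from GENCODE M21 (GRCm38) and matched 42462 of 43346 Ensembl rows. Rows with numeric identifiers held 6 and 14 counts and stayed out of library sizes, as did spike-ins.

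Ratios used unrounded counts over each library's Ensembl total, a prior of 0.5 counts before taking log2, and genes with at least 100 summed counts. Intervals are exact conditional (Clopper-Pearson) binomial intervals at 95%. The script was tested on simulated data. Both libraries form 1 group, so there is no p-value. Alternatives were TMM scaling (edgeR 4.0.16, counts rounded), spike-in scaling, a total without mitochondrial and erythroid genes, deposited TPM, posterior counts, other count minimums and the mean. Centring on genes of like length and leaving out genes that share exonic bases were added after seeing the data. The replication genes and all lists were chosen with earlier results of these data known. Named were, in each role, the genes highest and lowest in TPM and ratio, all genes past 1.5-fold and the subunits of complexes, and in other lists the 3 most abundant and the extremes in ratio (fewer are printed for the marker lists). Other genes named (E2f7, Rbl1, Top2a) were chosen after their values were seen. Analyses used Python 3.11.15, pandas 2.3.3, numpy 2.4.6, scipy 1.17.1, matplotlib 3.10.9 and R 4.3.3.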

Additional observations from a re-analysis of the deposited data

How the results depend on the processing

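Over the alternatives run, the members' median log2 ratio lay between -0.435 with spike-in scaling and -0.324 with TMM scaling or centring on length, the number lower in embryo 2 between 39 with TMM and 42 with spike-in scaling or TPM where all 42 entered, and the number past 1.5-fold between 9 with centring and 15 with spike-in scaling. Of all genes, 49.4% were lower with TMM, 62.5% with spike-in scaling and 65.1% with TPM. At least 1.5-fold lower were 8.56% with TMM, 11.8% with spike-in scaling, 13.3% with TPM and 7.87% with centring. A minimum of 500 counts leaves 35 members, of which 33 were lower and 9 past 1.5-fold. Of all genes at that minimum, 52.7% were lower and 6.02% at least 1.5-fold lower. Leaving out genes that share exonic bases leaves 35 members, of which 33 were lower and 11 past 1.5-fold. The 12 genes past 1.5-fold were all shared with spike-in scaling and TPM, and 11 of them with TMM. The members' median TPM was 17.94 without replicate 1 and 28.39 without replicate 2. With posterior mean TPM 3 single levels moved by more than their SD, to 2.59 for Orc1, 44.37 for Orc6 and 17.99 for Pold1. A list's median counted as moved when it left the range between the medians of its genes' lower and upper counting limits. Role medians moved in 3 of 70 alternatives, to -0.595 for the MCM2-7 ring with centring, -0.288 for helicase activation at 500 counts and -0.351 for the clamp with TPM. Changes within that range were not counted, such as -0.149 for origin loading at 500 counts and -0.203 for polymerases and primase with TPM. Of the 120 for other lists, 14 moved. With TPM these were -0.412 for other replication factors, -0.841 for G1 cyclins, -0.150 for housekeeping and -0.015 for young neurons. With spike-in scaling they were -0.109 for housekeeping and 0.020 for young neurons, and with centring 0.16 for young neurons. With the mean for the median they were -0.067 for housekeeping, -4.728 for mesenchyme, -1.687 for macrophage and -0.832 for endothelial markers. With other count minimums mesenchyme had -4.397 at 10 counts or above 0, and -5.905 at 500. The cause of these moves was not tested. Among single genes, 189 of 210 ratios stayed within their counting interval. Those that left it were 17 of 42 with TPM and 4 of 42 with spike-in scaling. All 42 stayed within it with TMM scaling, posterior counts and the total without mitochondrial and erythroid genes. No paired analysis was possible because both libraries belong to 1 group. With 1 pup per library, counting error is the only error that could be given for a ratio, and it is widest for Orc1 and Pole2.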

Other observations

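The 36 other replication factors can be read by what they do. Among genes of nucleotide metabolism, Dut, which clears dUTP, had a ratio of 1.052 (0.978 to 1.13) and Dtymk, thymidylate kinase, 1.06 (0.994 to 1.131), while Dck, deoxycytidine kinase, had 0.798 (0.756 to 0.843). By effective length, Dut and Dtymk (1086 and 866 nt) were shorter than Dck (2979 nt). Among origin firing factors, Ticrr had 0.57 (0.44 to 0.733), Topbp1 0.568 (0.521 to 0.617), and the kinase subunits Cdc7 and Dbf4 had 0.82 (0.767 to 0.876) and 0.68 (0.601 to 0.769). Gmnn, which binds Cdt1 and blocks new loading, had 0.693 (0.579 to 0.829), below the 0.81 of Cdt1 with an overlapping interval.

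Subunits of the same enzymes had ratios on both sides of 1. Pole4 had 1.15 (1.088 to 1.22), Pold4 1.096 (0.90 to 1.33) and Rpa3 1.018 (0.904 to 1.147), and Rnaseh2a, a subunit of RNase H2, had 1.13 (1.006 to 1.27), while Pole3 had 0.826 (0.766 to 0.889), Pold3 0.831 (0.775 to 0.892) and Rnaseh2b 0.885 (0.787 to 0.994). Ratios near 1 changed side with the scaling: 28 of the 36 were lower with the gene total and 32 with spike-in scaling or TPM. The share of all genes that were lower moved too, from 52.6% with the gene total to 62.5% with spike-in scaling and 65.1% with TPM. Those named above 1 were short, with effective lengths of 1219 nt for Pole4, 811 for Pold4, 571 for Rpa3 and 745 for Rnaseh2a. Pole3, Pold3 and Rnaseh2b had 1655, 1828 and 1041 nt. All genes of up to 1000 nt had a median log2 ratio of 0.217, and those of 1000 to 1500 nt had 0.103. Set against genes of like length, 33 of the 36 were lower. Among genes of chromatin copying and histone supply, Uhrf1 was at 0.573 (0.516 to 0.636), Chaf1a at 0.722 (0.60 to 0.866), Chaf1b at 0.871 (0.77 to 0.986) and Slbp, the histone mRNA binding protein, at 0.877 (0.834 to 0.923). All genes in these paragraphs were picked after their values were seen.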
